A study of Mus musculus with 36 samples.

Results

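Matrix metalloproteases (Mmp genes) and their tissue inhibitors (Timp genes) were followed as 10 named genes, Mmp2, Mmp3, Mmp9, Mmp10, Mmp11, Mmp13, Mmp14, Timp1, Timp2 and Timp3, out of 24284 genes with an FPKM value and 22456 genes present in both kinds of deposited table. Members were taken by gene symbol in the FPKM tables and by RefSeq transcript in the tables of read counts, and all 10 were found in all 12 RNA libraries. All groups are labelled MLL3-/-, and the comparison was between cells that had also lost MLL4 (MLL3-/-;MLL4-/-, called DKO) and cells with an intact conditional MLL4 allele (MLL3-/-;MLL4flox/flox, called f/f). MLL3 and MLL4 are histone H3 lysine 4 methyltransferases associated with enhancers. The cells were DKO and f/f fibroblasts 20 days after infection with lentiviruses carrying Oct4, a Sox gene that is not named, Klf4 and c-MYC, the immortalised embryonic fibroblasts (MEF) they came from, embryoid bodies after 4 days in suspension without LIF (bodies), and the embryonic stem cells (ESC) the bodies came from, which were grown with LIF on irradiated fibroblast feeders whose genotype the labels do not give. Day-20 and MEF groups had 1 library each, and ESC and body groups had 2. Replicate 1 of the ESC and body groups was deposited as read counts and RPKM per transcript, and replicate 2 and all other libraries as FPKM per gene, so that the replicates are compared only within their own set. No label ties the replicates to different cultures, and p-values therefore reflect only how far these libraries spread, which may be technical. The labels do not say from how many lines or clones the libraries of a genotype came, so line and genotype cannot be told apart.

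Matrix metalloproteases are zinc-dependent endopeptidases that cut collagens, laminins, proteoglycans and other extracellular proteins, and most are secreted as inactive precursors. Mmp14 is anchored in the plasma membrane and activates the precursor of Mmp2 on the cell surface, with Timp2 acting as the bridge between them. Timps bind the active site of these enzymes and block them, and fibroblasts are a main source of both proteases and inhibitors in connective tissue.

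Depth behind the values ran from 11366199 reads (replicate 2 of f/f bodies) to 38264157 reads (DKO MEF). Kmt2d, the gene of MLL4, stood at 24.8 FPKM in DKO and 12.9 FPKM in f/f cells at day 20, and at 23.5 FPKM in DKO and 14.4 FPKM in f/f MEF. These are values over the whole transcript, which do not read the deleted part, and they run against the direction of a loss, so "DKO" at day 20 and in MEF means the library labelled DKO. In bodies Kmt2d was at 14.3 RPKM and 10.1 FPKM in DKO libraries, against 16.4 RPKM and 15.4 FPKM in f/f libraries. In ESC it was at 8.89 RPKM and 10.7 FPKM in DKO libraries, against 13.5 RPKM and 18.7 FPKM in f/f libraries. Kmt2c, the gene of MLL3, was read at 1.8 to 3.07 RPKM and 2.06 to 3.45 FPKM over the 12 libraries, also as a value over the whole transcript. Day-20 cells are labelled as iPSC, but 10 pluripotency markers summed to 10.5 FPKM in DKO and 40.4 FPKM in f/f cells at day 20, with 4 of the 10 at 0 in DKO cells, against 7.31 FPKM in DKO and 7.52 FPKM in f/f MEF. The same markers summed to 3136 FPKM in DKO and 4481 FPKM in f/f ESC of replicate 2, and the day-20 libraries are therefore called factor-treated cells here.

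Mmp2, Mmp14 and all 3 Timps separated by stage more than by genotype, as the plot of levels by library shows. They were highest in factor-treated cells and MEF and lowest in ESC and bodies. Mmp11 was present in all 12 libraries, with its lowest level in f/f bodies in each set and its highest in DKO bodies (RPKM set) or DKO ESC (FPKM libraries). Mmp3, Mmp10 and Mmp13 were near 0 in MEF of both genotypes, present in ESC, and highest for Mmp3 and Mmp13 in f/f factor-treated cells. Mmp9 stayed at or under 2.27 RPKM or FPKM in every library.

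**Figure D1:**
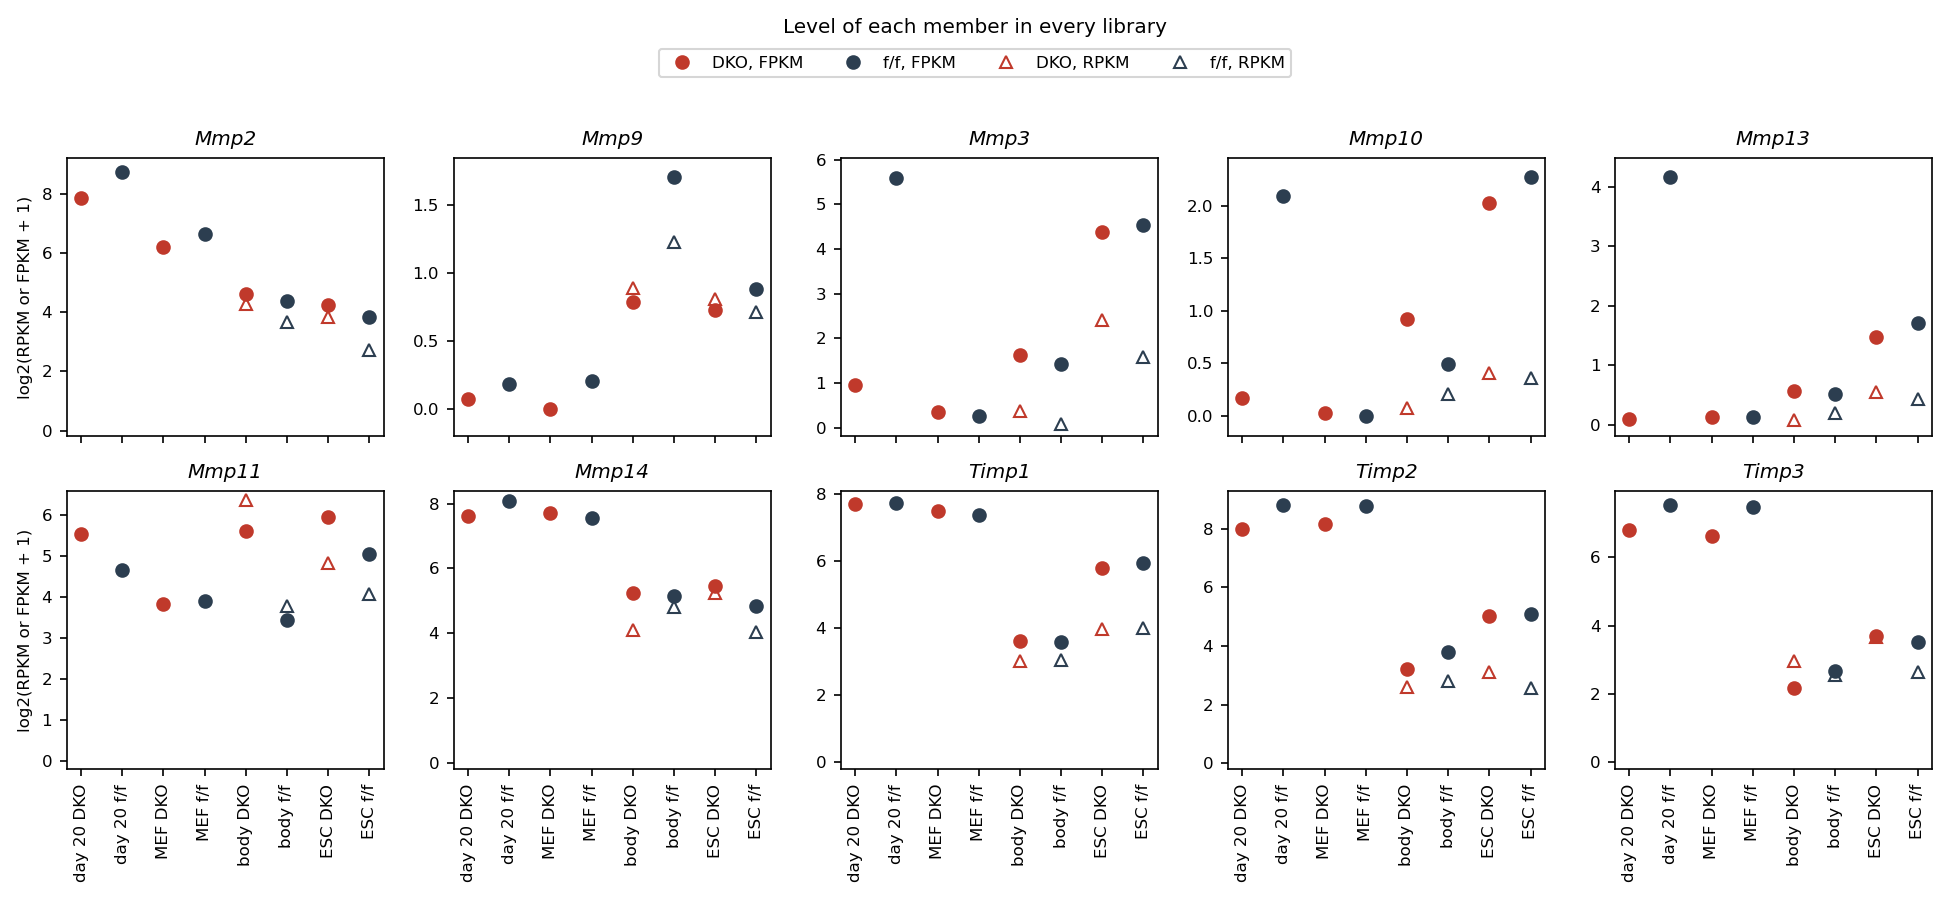
Level of each of the 10 genes on log2(RPKM or FPKM + 1) in all 12 libraries, with each gene on its own vertical scale; filled circles are FPKM libraries, open triangles RPKM libraries (replicate 1), red DKO and dark blue f/f. Mmp3 and Mmp13 show a single high point at day 20, in f/f cells (47.4 and 16.9 FPKM), and Mmp11 separates DKO from f/f bodies in both replicates.

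Loss of MLL4 was compared with its presence at each stage. Differences in ESC and bodies come from limma on log2(value + 1) over 12466 genes with a mean of at least 1 in the 8 ESC and body libraries, with the replicate set as a block, and a gene counts as called at a Benjamini-Hochberg adjusted p under 0.05. Mmp13, with a mean of 0.741, was not tested there, so 9 members were. In bodies 1 of the 9 members, Mmp11, rose in DKO libraries and none fell, while 4.44% of all tested genes were called there, 0.826% higher and 3.61% lower. The median difference of the 9 members in bodies was 0.01 on the log2 scale, beside -0.01 for all tested genes. In ESC 0 of the 9 members passed in limma (2 at an unadjusted p under 0.05), beside 4.24% of all genes (1.57% higher and 2.67% lower). DESeq2 called 2 members there, Mmp2 and Mmp14, among 1364 of 12466 genes called, and edgeR 0 members among 615. The median difference of the 9 members in ESC was 0.34, beside 0.02 for all genes. With 1 library per group, MEF and factor-treated cells have no test, and a difference of at least 2-fold on log2(FPKM + 1) at 1 FPKM or more in either library was counted. In MEF 0 of 6 members past that minimum differed by 2-fold between DKO and f/f, beside 9.63% of all genes (3.97% higher and 5.67% lower). At day 20 it was 3 of 9, all lower in DKO cells (Mmp3, Mmp10 and Mmp13), beside 20.7% of all genes in either direction, 8.51% higher and 12.2% lower. These 3 were under 1 FPKM in the DKO library and passed the minimum only through the f/f library, where they were high. The count of 3 therefore rests partly on the filter, and in MEF these genes did not pass it. The median difference at day 20 was -0.81 over the 9 members and 0.03 over all genes, and in MEF it was -0.24 over 6 members and 0.04 over all genes.

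The stage comparisons moved other members. In f/f bodies against f/f ESC, 2 of 9 members (Mmp3 and Timp1) fell and none rose, beside 12.0% of all genes called, 8.13% higher and 3.86% lower. In DKO bodies against DKO ESC, 0 of 9 passed in limma (5 at an unadjusted p under 0.05), beside 0.826% of all genes (0.201% higher and 0.626% lower). There edgeR called 1 member, Mmp3, among 143 of 12466 genes called, and DESeq2 4, Mmp3 and the 3 Timps, among 882. Factor-treated cells stood at least 2-fold above MEF for 2 of 6 members in DKO libraries (Mmp2 and Mmp11) beside 8.51% of genes (4.63% higher and 3.88% lower), and for 4 of 9 members in f/f libraries (Mmp2, Mmp3, Mmp10 and Mmp13) beside 13.6% of genes (7.83% higher and 5.77% lower). Mmp3, Mmp10 and Mmp13 passed the minimum in f/f libraries only through day 20 and in DKO libraries not at all. The 2 counts thus cover different members. MEF differed at least 2-fold from ESC for 9 of 9 members in DKO libraries beside 36.6% of genes (16.3% higher and 20.4% lower), and for 9 of 9 in f/f libraries beside 41.9% of genes (18.9% higher and 22.9% lower). In both genotypes these were 5 higher members (Mmp2, Mmp14, Timp1, Timp2 and Timp3) and 4 lower ones (Mmp3, Mmp10, Mmp11 and Mmp13). Of the lower ones, Mmp3, Mmp10 and Mmp13 passed the minimum only through ESC. The interaction, the genotype effect in bodies minus that in ESC, was called for 0 of 9 members (1, Mmp14, at an unadjusted p under 0.05) and for 0.0% of the 12466 genes in limma (1704 at an unadjusted p under 0.05), while edgeR called 0 genes and DESeq2 419. With a replicate block within each stage, limma called 353 genes for the interaction, Mmp11 among them. Comparisons that use the same libraries, such as DKO against f/f and day 20 against MEF, share those values and are not independent of each other.

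**Figure D2:**
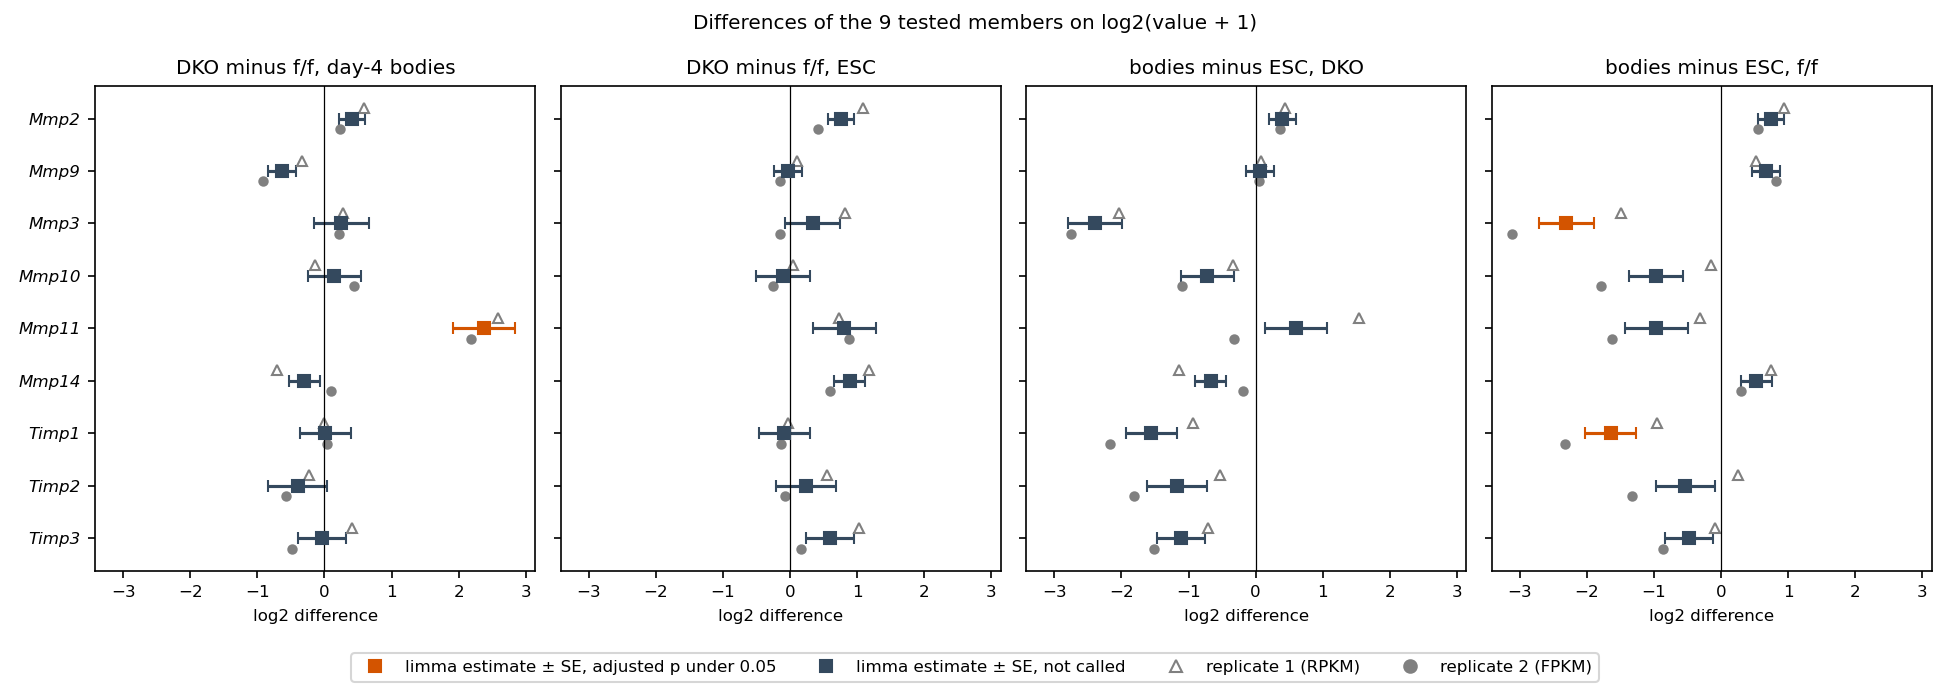
Differences of the 9 tested members on log2(value + 1) in 4 contrasts; squares are limma estimates with standard errors as bars, open triangles the difference within replicate 1 and grey circles within replicate 2. Orange marks an adjusted p under 0.05: Mmp11 in DKO against f/f bodies (2.38), and Mmp3 (-2.31) and Timp1 (-1.65) in f/f bodies against f/f ESC.

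Mmp2 encodes gelatinase A, which degrades denatured collagen and type IV collagen. Its level was 233 FPKM in DKO and 425 FPKM in f/f factor-treated cells, 72.7 FPKM in DKO and 97.9 FPKM in f/f MEF. The order from highest to lowest was thus f/f day 20, DKO day 20, f/f MEF, DKO MEF, and then bodies and ESC, with each step among the first 4 resting on 1 library. Factor-treated cells had 3.20-fold more Mmp2 than MEF in DKO libraries (95% interval 3.12 to 3.28, from the reads alone) and 4.34-fold more in f/f libraries (4.24 to 4.44). All intervals on ratios here are exact and cover counting error only, not the spread between cultures. Mmp2 was at 18.2 RPKM and 23.4 FPKM in DKO bodies, against 11.7 RPKM and 19.8 FPKM in f/f bodies. It was at 13.2 RPKM and 18.0 FPKM in DKO ESC, against 5.64 RPKM and 13.2 FPKM in f/f ESC. The DKO library was the higher one in both sets at both stages. The differences, 0.41 ± 0.20 in bodies (SE, limma adjusted p = 0.296) and 0.76 ± 0.20 in ESC (adjusted p = 0.0909), did not pass.

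Mmp9 encodes gelatinase B, a protease known mainly from leukocytes and osteoclasts. It was listed at 0.0538 FPKM (4 reads) in DKO and 0.139 FPKM (11 reads) in f/f factor-treated cells, and at 0 FPKM (0 reads) in DKO and 0.153 FPKM (14 reads) in f/f MEF. In bodies it stood at 0.853 RPKM and 0.725 FPKM in DKO libraries, against 1.35 RPKM and 2.27 FPKM in f/f libraries. In ESC it stood at 0.758 RPKM and 0.658 FPKM in DKO libraries, against 0.640 RPKM and 0.847 FPKM in f/f libraries. The f/f bodies held the highest Mmp9 level in each set, and every other group of ESC and bodies lay under 1. The difference between DKO and f/f bodies, -0.63 ± 0.21, did not pass in limma (adjusted p = 0.158), nor did that between f/f bodies and f/f ESC, 0.67 ± 0.21 (adjusted p = 0.0853). These rest on 31 to 82 reads per library.

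Mmp3 (stromelysin-1), Mmp10 (stromelysin-2) and Mmp13 (collagenase-3) are secreted proteases whose genes lie on chromosome 9. Stromelysins cut proteoglycans and activate other precursors, and Mmp13 is a main interstitial collagenase of rodents. All 3 are textbook targets of AP-1, the dimer of Fos and Jun proteins. Their promoter windows are shown because these 3 genes had the largest genotype difference among the members at day 20. Each window runs from 250 bases before to 50 bases after the RefSeq start on GRCm38.p6, on the plus strand, with the AP-1 letters TGANTCA in capitals: Mmp3 at chr9:7445572-7445871, Mmp10 at chr9:7502092-7502391 and Mmp13 at chr9:7272264-7272563.
Mmp3: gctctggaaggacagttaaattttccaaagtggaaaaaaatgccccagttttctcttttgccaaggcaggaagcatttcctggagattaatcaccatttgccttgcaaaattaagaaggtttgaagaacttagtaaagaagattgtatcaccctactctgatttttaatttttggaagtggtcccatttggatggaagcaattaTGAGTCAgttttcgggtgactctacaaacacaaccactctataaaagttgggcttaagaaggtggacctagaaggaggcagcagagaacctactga
Mmp10: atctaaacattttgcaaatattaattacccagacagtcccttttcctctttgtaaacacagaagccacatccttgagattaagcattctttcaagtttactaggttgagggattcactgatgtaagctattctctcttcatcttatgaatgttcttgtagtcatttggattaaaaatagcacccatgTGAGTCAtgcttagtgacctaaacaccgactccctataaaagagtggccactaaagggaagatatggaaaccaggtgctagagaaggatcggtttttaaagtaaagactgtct
Mmp13: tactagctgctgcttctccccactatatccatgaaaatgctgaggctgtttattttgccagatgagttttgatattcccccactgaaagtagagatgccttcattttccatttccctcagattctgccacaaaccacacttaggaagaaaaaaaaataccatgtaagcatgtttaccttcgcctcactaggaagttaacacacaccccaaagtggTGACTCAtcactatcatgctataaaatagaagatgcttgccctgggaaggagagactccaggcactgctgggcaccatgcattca
The match began 46 bases before the annotated start in Mmp3, 63 in Mmp10 and 35 in Mmp13, and each window also held TATAAA, 7 bases before the start in Mmp3, 29 in Mmp10 and 16 in Mmp13. TGANTCA, which is its own reverse complement apart from the middle base, occurs in 7.81% of the 32851 promoter windows of the RefSeq table, and TATAAA on either strand in 13.6%. Of the 8 members with a window in the table, the other 5 (Mmp11, Mmp14, Timp1, Timp2 and Timp3) held neither set of letters. The 3 windows shown are 37.7% to 43.7% G or C, and the other 5 are 55.0% to 68.7%. A match describes letters in a window and not a bound site.

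In factor-treated cells Mmp3 stood at 0.949 FPKM (40 reads) in the DKO library, against 47.4 FPKM (2135 reads) in the f/f library. Mmp13 stood at 0.0639 FPKM (4 reads) in the DKO library, against 16.9 FPKM (1128 reads) in the f/f library. Mmp10 stood at 0.123 FPKM (5 reads) in the DKO library, against 3.27 FPKM (142 reads) in the f/f library. Each of the 3 proteases thus had over 100 reads in f/f cells and at most 40 in DKO cells. In DKO cells Mmp3 was 50.0-fold lower (36.6 to 70.1), Mmp10 26.6-fold lower (11.1 to 83.1) and Mmp13 264-fold lower (102.8 to 970.4).

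The MEF from which these cells were made held little of any of the 3 in either genotype. Mmp3 was at 0.276 FPKM in DKO and 0.192 FPKM in f/f MEF, and Mmp13 at 0.0879 FPKM in DKO and 0.0905 FPKM in f/f MEF. Mmp10 had 1 read in DKO and 0 reads in f/f MEF. Against MEF, f/f factor-treated cells had 247-fold more Mmp3 (134 to 516), 186-fold more Mmp13 (90.1 to 465) and at least 54.7-fold more Mmp10, a bound set at 3 reads in the f/f MEF library. In DKO libraries day 20 was 3.44-fold above MEF for Mmp3 (1.95 to 6.29), with both values under 1 FPKM, and the interval for Mmp13, 0.726-fold (0.164 to 2.60), included 1. Whether the response itself differs between genotypes was not tested, since each group is 1 library.

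**Figure D3:**
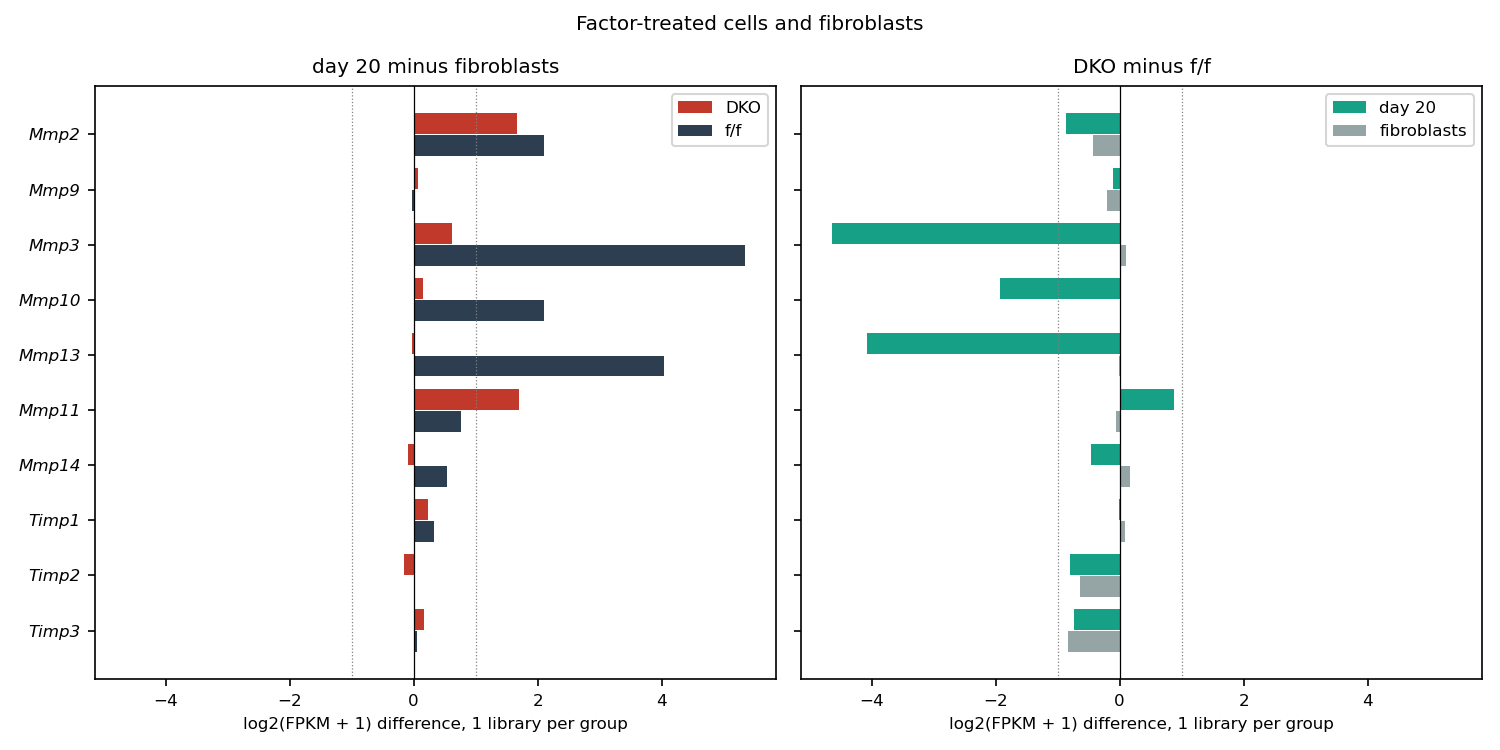
Differences of the 10 genes on log2(FPKM + 1) between single libraries: on the left day 20 minus MEF in DKO (red) and f/f (dark blue), on the right DKO minus f/f at day 20 (green) and in MEF (grey), with dotted lines at a 2-fold difference. Mmp3, Mmp10 and Mmp13 have long f/f bars on the left and long negative day-20 bars on the right, while no member passes 2-fold between DKO and f/f MEF.

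In ESC and bodies the 3 genes followed stage and replicate set more than genotype. Mmp3 was at 0.288 RPKM and 2.10 FPKM in DKO bodies, against 4.30 RPKM and 19.9 FPKM in DKO ESC. It was at 0.0595 RPKM and 1.66 FPKM in f/f bodies, against 1.99 RPKM and 22.2 FPKM in f/f ESC. Bodies were lower than ESC in every set and genotype. Mmp3 fell in f/f bodies relative to f/f ESC by 2.31 ± 0.41 on the log2 scale (limma adjusted p = 0.0236), and the difference in DKO cells, -2.40 ± 0.41, had an adjusted p of 0.0645. The 2 estimates differed by -0.09 ± 0.58 (adjusted p = 0.966 for the interaction). The f/f call was lost without replicate 1 (adjusted p = 0.0593) or 2 (0.135) of f/f ESC, without replicate 1 (0.0785) or 2 (0.173) of f/f bodies, and without the replicate block (0.440). Because log2(value + 1) shrinks low values, edgeR on the reads gave a larger Mmp3 difference in f/f cells, -3.92.

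Mmp10 was at 0.0504 RPKM and 0.900 FPKM in DKO bodies and 0.325 RPKM and 3.08 FPKM in DKO ESC, and at 0.156 RPKM and 0.406 FPKM in f/f bodies and 0.285 RPKM and 3.85 FPKM in f/f ESC. Mmp13 was at 0.0485 RPKM and 0.472 FPKM in DKO bodies and 0.454 RPKM and 1.77 FPKM in DKO ESC, and at 0.140 RPKM and 0.428 FPKM in f/f bodies and 0.345 RPKM and 2.27 FPKM in f/f ESC. Both genes were lower in bodies than in ESC in each set and genotype, and Mmp10 did not pass the test (f/f adjusted p = 0.154; DKO adjusted p = 0.378). Between DKO and f/f cells neither Mmp3 nor Mmp10 passed in bodies or in ESC (adjusted p of 0.684 to 0.910).

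Of 13 tested fibroblast markers, 2 fell in DKO bodies relative to DKO ESC (S100a4 and Thy1), beside 0.626% of all genes. In f/f bodies relative to f/f ESC 1 fell (S100a4), beside 3.86% of all genes. S100a4, a calcium-binding protein abundant in fibroblasts, fell by 2.77 ± 0.27 in DKO cells (limma adjusted p = 0.0285) and by 2.10 ± 0.27 in f/f cells (adjusted p = 0.0159). Postn, a matrix protein of fibroblasts, stood at 0.861 RPKM and 1.04 FPKM in DKO bodies against 5.19 RPKM and 51.8 FPKM in DKO ESC, and at 1.02 RPKM and 4.86 FPKM in f/f bodies against 3.09 RPKM and 53.3 FPKM in f/f ESC. The 15 fibroblast markers summed to 31.2 RPKM and 65.2 FPKM in DKO bodies, against 92.2 RPKM and 418 FPKM in DKO ESC. They summed to 178.5 RPKM and 323 FPKM in f/f bodies, against 91.3 RPKM and 485 FPKM in f/f ESC. Between f/f stages the sum of all 15 thus ran in opposite directions in the 2 sets. Tagln, an actin-binding protein of smooth muscle and fibroblasts, alone stood at 132 RPKM and 200.1 FPKM in f/f bodies, against 28.8 RPKM and 155.8 FPKM in f/f ESC. Without Tagln, left out after its values were seen, the other 14 summed to 46.4 RPKM and 123 FPKM in f/f bodies, against 62.5 RPKM and 329 FPKM in f/f ESC, lower in bodies in both sets. Single markers went both ways in f/f replicate 1. There Pdgfra, Pdgfrb, Twist2, Cdh11, Loxl1 and Cd248 were also higher in bodies, at no more than 2.00 RPKM. The remaining markers, Postn among them, were lower there. In f/f replicate 2 only Pdgfrb and Tagln were higher in bodies than in ESC. Feeder cells were part of the ESC cultures per the labels, and their part in the levels of Mmp3, Mmp10, Mmp13 and the Timps was not tested. The MEF libraries, which hold the same markers at summed levels of 2999 FPKM (DKO) and 3326 FPKM (f/f), had less Mmp3, Mmp10 and Mmp13 than the ESC libraries of replicate 2. These MEF are immortalised cells and not the irradiated feeders, so their values do not give the level of these genes in feeders. In bulk RNA of this kind, fewer cells of a type and less RNA per cell cannot be told apart.

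Mmp11 (stromelysin-3) is activated inside the cell by furin and is known from tissue remodelling and from the stroma around tumours. In bodies it was at 80.5 RPKM (4188 reads) and 47.7 FPKM (1443 reads) in DKO libraries, against 12.6 RPKM (529 reads) and 9.75 FPKM (249 reads) in f/f libraries. The 2 DKO libraries were each several times above the f/f library of their set, and the groups did not overlap. The estimate was 2.38 ± 0.47 on the log2 scale, a 5.21-fold rise (limma adjusted p = 0.0475, n = 2 libraries per group in a fit across all genes), with 2.58 within replicate 1 and 2.18 within replicate 2. This call lies close to the threshold. It was kept by edgeR (adjusted p = 0.0475) and DESeq2 (adjusted p = 6.17e-07) and lost without the replicate block (0.199). It was also lost without DKO body replicate 1 (0.205), f/f body replicate 1 (0.138) or 2 (0.293), or f/f ESC replicate 1 (0.0670) or 2 (0.0659), with an estimate between 1.72 and 3.05 over all omissions.

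The DKO bodies also differed from f/f bodies in their cell markers, where 3.61% of all tested genes fell. Of 8 tested primitive streak markers 7 fell in DKO bodies, among them Mixl1, a streak homeobox gene, which was at 0.510 RPKM and 0.195 FPKM in DKO bodies against 17.0 RPKM and 11.1 FPKM in f/f bodies. Of 13 tested fibroblast markers, 2 fell, Tagln with a difference of -3.60 ± 0.40 (limma adjusted p = 0.0126) and Thy1 with -1.02 ± 0.16 (adjusted p = 0.0255). Whether the make-up of the bodies has a part in the Mmp11 difference was not tested.

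In ESC Mmp11 was at 27.1 RPKM and 60.1 FPKM in DKO libraries, against 15.9 RPKM and 32.2 FPKM in f/f libraries. The DKO library was again the higher one in both sets. The difference of 0.81 ± 0.47 did not pass (adjusted p = 0.377), and the genotype effects in bodies and ESC differed by 1.57 ± 0.66, which also did not pass (adjusted p = 0.374 for the interaction). With a replicate block within each stage, both were called, the ESC difference with an adjusted p of 0.0205 and the interaction with 0.0282. Over the other alternatives the adjusted p ran from 0.246 to 0.896 for the ESC difference and from 0.116 to 1.00 for the interaction. Mmp11 was thus higher in DKO libraries in both replicates at both stages, and whether the ESC difference and the interaction are called depends on how the block is set. Between stages its replicates did not go together in DKO cells, with 1.54 within replicate 1 and -0.33 within replicate 2. In f/f cells both were lower in bodies, at -0.31 and -1.63, and the mean of -0.97 ± 0.47 did not pass (adjusted p = 0.211).

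Outside ESC and bodies Mmp11 was at 45.0 FPKM in DKO and 24.1 FPKM in f/f factor-treated cells, and at 13.1 FPKM in DKO and 13.8 FPKM in f/f MEF. The DKO day-20 library had 1.87-fold more than the f/f one (1.75 to 2.00), which is under 2-fold on the scale of the count above, while in MEF the ratio of 0.953 (0.872 to 1.04) included 1. Factor-treated cells were 3.43-fold above MEF in DKO libraries (3.19 to 3.68) and 1.75-fold above MEF in f/f libraries (1.61 to 1.91). Mmp11 was the only one of the 7 proteases with a higher level in DKO than in f/f factor-treated cells.

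Mmp14 (MT1-MMP), the membrane-bound activator of Mmp2, was among the 4 highest of the 10 genes in every library. It was at 196 FPKM in DKO and 269 FPKM in f/f factor-treated cells, and at 208 FPKM in DKO and 185 FPKM in f/f MEF. DKO cells were thus 1.37-fold lower at day 20 (1.34 to 1.41) and 1.12-fold higher in MEF (1.097 to 1.146), both small against the 2-fold rule. In bodies it was at 16.1 RPKM and 37.0 FPKM in DKO libraries, against 26.8 RPKM and 34.4 FPKM in f/f libraries. In ESC it was at 36.6 RPKM and 42.5 FPKM in DKO libraries, against 15.6 RPKM and 27.8 FPKM in f/f libraries. Mmp14 was the higher in DKO ESC in both sets, whereas in bodies the sets went opposite ways. The ESC difference of 0.89 ± 0.23 missed the threshold in limma (adjusted p = 0.0909) and passed in DESeq2 (adjusted p = 0.0163). The body difference was -0.30 ± 0.23 (adjusted p = 0.506), and the interaction of -1.19 ± 0.33 did not pass (adjusted p = 0.220).

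Timp1 encodes a secreted inhibitor that binds the precursor of Mmp9 and blocks most secreted proteases. Its level was 211 FPKM in DKO and 212 FPKM in f/f factor-treated cells, and 179 FPKM in DKO and 168 FPKM in f/f MEF. The genotypes differed by a factor of 0.994 at day 20 (0.953 to 1.04) and 1.07 in MEF (1.03 to 1.11). Timp1 was at 7.23 RPKM and 11.4 FPKM in DKO bodies, against 14.7 RPKM and 54.9 FPKM in DKO ESC. It was at 7.29 RPKM and 11.2 FPKM in f/f bodies, against 15.1 RPKM and 60.4 FPKM in f/f ESC. Within each set the genotypes were close at both stages, and bodies lay below ESC without overlap. Timp1 fell in f/f bodies relative to f/f ESC by 1.65 ± 0.38 (limma adjusted p = 0.0434). The DKO difference of -1.55 ± 0.38 had an adjusted p of 0.119, and the interaction was 0.10 ± 0.54 (adjusted p = 0.961). The f/f call was lost without replicate 1 (0.0768) or 2 (0.243) of f/f ESC, replicate 1 (0.0840) or 2 (0.258) of f/f bodies, replicate 1 (0.0544) or 2 (0.0517) of DKO ESC, and without the replicate block (0.425). DKO and f/f libraries differed in Timp1 by 0.01 in bodies (95% interval -0.92 to 0.94) and -0.09 in ESC (-1.01 to 0.84), intervals that allow a difference of up to about 2-fold.

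Timp2, the inhibitor that also takes part in Mmp2 activation, had the highest level of the 10 genes in all 4 day-20 and MEF libraries. It was at 254 FPKM in DKO and 444 FPKM in f/f factor-treated cells, and at 282 FPKM in DKO and 442 FPKM in f/f MEF. The f/f libraries lay above the DKO libraries at both stages, and day 20 hardly differed from MEF in f/f libraries, where the ratio of 1.00 (0.991 to 1.02) included 1. DKO cells were 1.75-fold lower at day 20 (1.72 to 1.78) and 1.57-fold lower in MEF (1.55 to 1.59). In bodies Timp2 was at 5.01 RPKM and 8.31 FPKM in DKO libraries, against 6.07 RPKM and 12.8 FPKM in f/f libraries. In ESC it was at 7.66 RPKM and 31.8 FPKM in DKO libraries, against 4.93 RPKM and 33.5 FPKM in f/f libraries. Neither the body difference (-0.40 ± 0.44, adjusted p = 0.648) nor the ESC difference (0.24 ± 0.44, adjusted p = 0.801) passed.

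Timp3 encodes the inhibitor that stays bound to the matrix and also blocks ADAM proteases. It was at 109 FPKM in DKO and 182 FPKM in f/f factor-treated cells, and at 97.5 FPKM in DKO and 175 FPKM in f/f MEF. As for Timp2, both f/f libraries lay above both DKO libraries, with DKO cells 1.66-fold lower at day 20 (1.63 to 1.70) and 1.79-fold lower in MEF (1.76 to 1.83). In bodies Timp3 was at 6.76 RPKM and 3.51 FPKM in DKO libraries, against 4.83 RPKM and 5.32 FPKM in f/f libraries. In ESC it was at 11.7 RPKM and 11.9 FPKM in DKO libraries, against 5.18 RPKM and 10.6 FPKM in f/f libraries. The sets disagreed in bodies, and no Timp3 difference passed (adjusted p = 0.963 in bodies and 0.397 in ESC). Against DKO ESC, DKO bodies had lower Timp3 in both sets (-1.11 ± 0.36, adjusted p = 0.176) and lower Timp2 (-1.17 ± 0.44, adjusted p = 0.224), and neither passed in limma.

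MEF had far more inhibitor than ESC. In replicate 2 of ESC, the set with FPKM values, MEF were 8.86-fold higher in Timp2 in DKO cells (8.51 to 9.23) and 13.2-fold higher in f/f cells (12.7 to 13.7). For Timp3 the ratios were 8.17 in DKO cells (7.71 to 8.67) and 16.5 in f/f cells (15.6 to 17.6), and for Timp1 3.26 (3.05 to 3.48) and 2.78 (2.60 to 2.97). Mmp14 was 4.89-fold higher in DKO MEF (4.68 to 5.10) and 6.65-fold higher in f/f MEF (6.32 to 7.02), and Mmp2 4.04-fold (3.80 to 4.30) and 7.42-fold (6.92 to 7.97). Mmp3 ran the other way, 72.0-fold lower in DKO MEF (45.8 to 120.3) and 115-fold lower in f/f MEF (62.5 to 242). The median over all genes was -0.12 in DKO and -0.13 in f/f cells for this comparison, and quantile scaling moved the f/f median to -0.03.

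Summed levels show how the balance of proteases and inhibitors differed. FPKM is a value per length, so the genes can be added and ranked within a library, though messenger levels say nothing of activity. In bodies the 7 proteases summed to 116 RPKM and 112 FPKM in DKO libraries, against 52.9 RPKM and 68.8 FPKM in f/f libraries. The 3 inhibitors in the same bodies summed to 19.0 RPKM and 23.2 FPKM in DKO libraries, against 18.2 RPKM and 29.3 FPKM in f/f libraries. The ratio of summed Timp to summed Mmp levels was therefore 0.164 and 0.207 in DKO bodies, against 0.344 and 0.426 in f/f bodies. Mmp11 alone made up 59.6% and 35.2% of the sum over the 10 genes in DKO bodies. Without Mmp11, the DKO ratio in bodies was the higher one in replicate 1 and the lower one in replicate 2. In ESC the ratio over all 10 genes was 0.412 and 0.676 in DKO libraries, against 0.626 and 1.02 in f/f libraries. With all 10 genes counted, the DKO library had the lower ratio in each set at both stages. In bodies of replicate 1 this rested on Mmp11. Further Mmp genes, 15 with RPKM and 16 with FPKM values, are not in these sums. In bodies they were lower in DKO, at 22.4 RPKM and 20.5 FPKM against 38.9 RPKM and 34.5 FPKM in f/f libraries. In ESC they were higher in DKO, at 21.5 RPKM and 18.7 FPKM against 16.1 RPKM and 13.3 FPKM.

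Inhibitors outweighed proteases in every MEF and day-20 library. The ratio was 1.21 in DKO and 1.07 in f/f factor-treated cells, and 1.90 in DKO and 2.64 in f/f MEF. Proteases summed to 474 FPKM in DKO and 785 FPKM in f/f factor-treated cells, against 294 FPKM in DKO and 297 FPKM in f/f MEF. Mmp2 and Mmp14 made up most of each sum, and Mmp3 and Mmp13 were visible in the f/f day-20 library alone. The further Mmp genes, left out of these sums, came to 70.3 FPKM in f/f factor-treated cells. Added to the 785 FPKM of the 7 proteases there, they exceed the 838.5 FPKM of the 3 inhibitors. In DKO factor-treated cells and in MEF of both genotypes inhibitors stayed above proteases with these genes added.

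**Figure D4:**
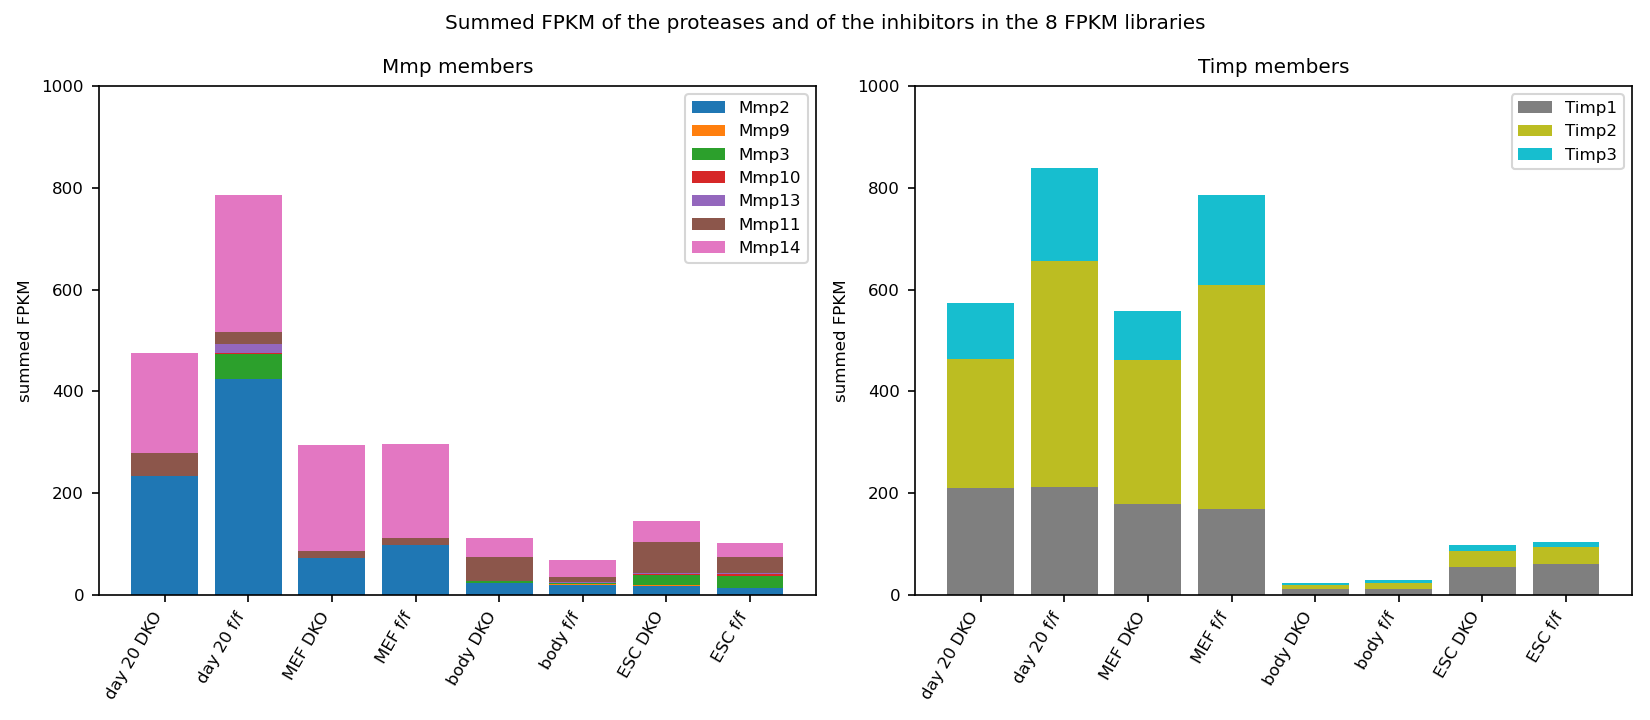
Summed FPKM of the 7 proteases (left) and the 3 inhibitors (right) in the 8 FPKM libraries, stacked by gene; ESC and bodies are replicate 2. Mmp2 and Mmp14 fill most of the protease bars at day 20 and in MEF. Mmp11 is the largest protease share in DKO bodies and in ESC of both genotypes. The inhibitor bars of ESC and bodies are a small part of those in MEF.

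Other proteases of the family and further lists were counted next, beside these shares of all genes. In DKO against f/f libraries 0.826% rose and 3.61% fell in bodies, and 1.57% rose and 2.67% fell in ESC. In f/f bodies against f/f ESC 8.13% rose and 3.86% fell. At least 2-fold apart in DKO against f/f libraries were 8.51% higher and 12.2% lower at day 20, and 3.97% and 5.67% in MEF. Of 16 further Mmp genes, 5 passed the minimum in ESC and bodies. In DKO bodies 1 of them rose, Mmp17, and 1 fell, Mmp25, which are both held on the membrane by a lipid anchor. Mmp17 was at 10.2 RPKM and 5.62 FPKM in DKO bodies, against 3.95 RPKM and 2.75 FPKM in f/f bodies (1.00 ± 0.19, limma adjusted p = 0.0447). Mmp25 was at 3.55 RPKM and 6.12 FPKM in DKO bodies, against 23.6 RPKM and 19.9 FPKM in f/f bodies (-1.99 ± 0.36, adjusted p = 0.0392). Mmp25 was also one of 2 that rose in f/f bodies relative to f/f ESC, by 2.61 ± 0.36 (adjusted p = 0.0166), with the membrane-spanning Mmp15 by 1.35 ± 0.21 (adjusted p = 0.0185). None of the 5 passed in DKO bodies against DKO ESC, or in DKO against f/f ESC. In factor-treated cells Mmp23 was at 2.35 FPKM in DKO and 34.7 FPKM in f/f libraries, and in MEF at 3.10 FPKM in DKO and 18.9 FPKM in f/f libraries. Mmp19 was at 2.44 FPKM in DKO and 9.98 FPKM in f/f MEF, and these were the only further Mmp genes at least 2-fold apart between genotypes there.

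Timp4 and inhibitors or Timp-like proteins outside the Timp family (Reck, A2m, Tfpi2 and Pcolce) were a short list of 5, of which 3 were tested. A2m, a broad protease trap of plasma, rose in DKO bodies by 2.84 ± 0.36 (limma adjusted p = 0.0149) and in DKO ESC by 2.79 ± 0.36 (adjusted p = 0.0172). Reck, a membrane-anchored inhibitor of several Mmps, was at 8.15 FPKM in DKO and 19.1 FPKM in f/f factor-treated cells. Pcolce, which enhances procollagen processing and carries a Timp-like domain, was at 129.5 FPKM in DKO and 367 FPKM in f/f MEF.

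A list of 15 genes held convertases, the plasmin system and cell-surface proteins known as partners of Mmps (Bsg, Cd44, Cav1, Itgav and Itgb3), and 12 were tested in ESC and bodies. In DKO bodies 1 fell, Plaur, the receptor of urokinase, with a difference of -2.63 ± 0.41 (limma adjusted p = 0.0253), at 3.37 RPKM and 1.01 FPKM in DKO bodies against 18.9 RPKM and 15.9 FPKM in f/f bodies. Between f/f bodies and f/f ESC, Furin, the protease that activates Mmp11 and Mmp14, rose by 1.01 ± 0.12 (adjusted p = 0.0136), and Pcsk6, a related convertase, fell by 1.35 ± 0.23 (adjusted p = 0.0214). At day 20, 3 of 13 were at least 2-fold higher in DKO cells, among them Plau and Cav1, beside 8.51% of all genes. Another 4 were lower (Serpine2, Pcsk6, Plat and Itgb3), beside 12.2% of all genes. Plau, the plasminogen activator urokinase, was at 148 FPKM in DKO and 20.7 FPKM in f/f cells, and Serpine2, an inhibitor of it, was at 2.00 FPKM in DKO and 148 FPKM in f/f cells. Cav1, a coat protein of caveolae, was at 354 FPKM in DKO and 77.6 FPKM in f/f cells.

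ADAM and ADAMTS proteases and the matrix proteins they share as substrates with Mmps were also listed. Of 16 tested ADAM-type genes, 1 fell in DKO bodies (Adamts15) and 2 fell in DKO ESC (Adam19 and Adamts14). At day 20, 3 of 22 were at least 2-fold higher and 7 lower in DKO cells, beside 8.51% and 12.2% of all genes. Adamts2, which trims procollagen, was at 2.85 FPKM in DKO and 37.7 FPKM in f/f cells. Of 28 tested matrix genes 4 fell in DKO bodies (Sparc, Agrn, Lama5 and Lamb1) and 1 in DKO ESC (Agrn). At day 20 11 of 28 were at least 2-fold lower and 1 higher in DKO cells, beside 12.2% and 8.51% of all genes. Spp1 (osteopontin), a substrate of several Mmps, was at 105 FPKM in DKO and 2158 FPKM in f/f factor-treated cells, and Col1a1 at 921 FPKM in DKO and 6061 FPKM in f/f cells. The low Mmp3, Mmp10 and Mmp13 in DKO cells at day 20 thus stood beside lower levels of matrix genes, and the median over the 28 was -0.64, beside 0.03 over all genes. In MEF, where these 3 proteases were near 0 in both genotypes, 9 of 28 matrix genes were at least 2-fold lower in DKO cells. Another 2 were higher there, and the median over the 28 was -0.06.

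A list of 15 transcription factors held 7 Fos and Jun genes, whose proteins form AP-1, 5 ETS genes, and Runx2, Nfkb1 and Rela, and 14 were tested. In DKO bodies against DKO ESC 3 fell: Fosb by 4.99 ± 0.38, Fos by 4.86 ± 0.40 and Junb by 2.32 ± 0.29 (limma adjusted p = 0.0173, 0.0173 and 0.0363). In f/f bodies against f/f ESC Fosb fell by 3.35 ± 0.38 and Fos by 2.90 ± 0.40 (adjusted p = 0.0136 and 0.0166), and Ets1 rose by 1.39 ± 0.25 (adjusted p = 0.0239). In these same comparisons Mmp3 was lower in bodies in both genotypes. At day 20, 4 of 15 were at least 2-fold higher in DKO cells (Runx2, Fosl1, Etv1 and Ets1) and 1 lower (Fosb), beside 8.51% of all genes higher and 12.2% lower. Among the 7 Fos and Jun genes, 1 was higher and 1 lower. Fosl1 was at 5.24 FPKM in DKO and 1.01 FPKM in f/f cells, Runx2, which acts with AP-1 on Mmp13 in bone cells, at 25.9 FPKM in DKO and 5.63 FPKM in f/f cells, and Fosb at 6.97 FPKM in DKO and 22.4 FPKM in f/f cells. Ets1 was at 19.6 FPKM in DKO and 6.84 FPKM in f/f cells. The part of these factors in the levels of the 3 proteases was not tested.

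The 15 fibroblast markers summed to 1829 FPKM in DKO and 1814 FPKM in f/f factor-treated cells, and none was at 0 in either. Acta2, smooth muscle actin, was at 705 FPKM in DKO and 174 FPKM in f/f cells, and Tagln at 513 FPKM in DKO and 203 FPKM in f/f cells. Without both, left out after their values were seen, the other 13 summed to 611 FPKM in DKO and 1437 FPKM in f/f cells. Single markers differed, with 6 of 14 at least 2-fold lower in DKO cells and 3 higher, beside 12.2% and 8.51% of all genes. Among the lower ones, Thy1 was at 1.08 FPKM in DKO and 119.7 FPKM in f/f cells. Cdh11, also lower, was at 34.0 FPKM in DKO and 294 FPKM in f/f cells. The 10 blood markers summed to 5.23 FPKM in DKO and 3.73 FPKM in f/f factor-treated cells, with 5 and 4 of them at 0. In replicate 2 they summed to 9.56 FPKM in DKO bodies, where 4 of the 10 were at 0, against 26.7 FPKM in f/f bodies, where Mmp9 was highest. Of the f/f value, 5.05 FPKM was Hbb-bh1 and 7.04 FPKM Hba-x, both embryonic globins, and 11.3 FPKM was Cd68, a macrophage marker. Ptprc, which marks all leukocytes, was at 0 in the DKO and 0.0155 FPKM in the f/f bodies of that replicate. In replicate 1, which has no Cd68 value, the other 9 summed to 4.65 RPKM in DKO and 6.10 RPKM in f/f bodies, against 43.5 RPKM in DKO and 33.6 RPKM in f/f ESC. Of these ESC sums, Lyz2 alone was 40.7 RPKM in DKO and 31.1 RPKM in f/f ESC. Ptprc was at 0.0626 RPKM in DKO and 0.0767 RPKM in f/f ESC of that replicate. Mmp9 was highest in f/f bodies in replicate 1 too. The part of blood cells in the Mmp9 level was not tested.

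Genes with the most similar pattern were sought by Pearson's r of log2(FPKM + 1) over the 8 FPKM libraries among 12161 genes, for each member reaching 10 FPKM. These libraries share stage and genotype, and r is given as a description. Mmp3 was closest to Krt17, a keratin (0.990), and then to Mmp10 (0.974). Mmp13 was closest to Mfap5, a microfibril protein (0.994), Ctsk, the collagen-cutting cathepsin K (0.993), and Angptl7 (0.988). Timp2 and Timp3 were near each other (0.997), each also close to Nfic (0.996 and 0.998), and Timp1 was closest to Lox, which cross-links collagen (0.995). Mmp11 had no neighbour as close, with Hebp1 first (0.958). Mmp14 and Mmp2 had r of 0.933 with each other. Their nearest genes were Scn2a for Mmp14 (0.997) and Glt8d1 for Mmp2 (0.991).

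Some annotated genes overlap members, and the strand used in counting is not given in the sources used here. Timp1 overlaps Syn1, which reached 5.45 FPKM (in DKO cells at day 20), Timp2 overlaps Cep295nl, which reached 2.83 FPKM, and Timp3 overlaps Syn3, which reached 0.558 FPKM. Mmp2 overlaps Gm45472, a long noncoding RNA gene for which no FPKM value was found. How far reads of these genes enter the values of the members was not tested, which leaves the lower Timp values of ESC and bodies uncertain. The Timp levels in MEF are far above the levels of the overlapping genes.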

How the data were processed

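The members and all gene lists were chosen with earlier results of these data known. Replicate 1 of ESC and bodies was deposited by the authors as read counts and RPKM per RefSeq transcript (per the file headers), and the other libraries as FPKM per gene, as the file headers say. In the submitters' processing notes stand mm9, CASAVA 1.8.2, bedtools 2.16 and SICER 1.1, while aligner, annotation and strand setting were not given in the sources used here. The 24 chromatin and input samples among the 36 were not used here. In replicate 1 a gene was read from its transcript with the most reads. Depth behind FPKM was recovered from low genes with 1 transcript, of which 90.8% to 92.4% per library gave whole reads within 0.02 reads.

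Differences among the 8 ESC and body libraries were tested with limma 3.58.1 (R 4.3.3, empirical Bayes with trend, two-sided) on log2(value + 1), with 4 stage and genotype groups and the replicate set as terms, 3 residual and 3.27 prior degrees of freedom. The sets were taken as a block because same-set libraries deviated together, with correlations of 0.864 to 0.954 across genes. The sets also differ in being RPKM per transcript or FPKM per gene, which can give such correlations by itself. The correlations therefore cannot show that libraries of a set are paired samples. This scale understates changes of low genes. edgeR 4.0.16 and DESeq2 1.42.0 were run on counts and on reads recovered from the authors' FPKM values, as alternatives. Other alternatives changed the pseudocount, filter, scaling, trend and block, or left out each library. Differences between single libraries have no test, and their 95% intervals are exact intervals of the ratio of reads. Named genes were all 10 members, Kmt2d, list genes past the threshold (at most 4 per list and contrast) and the nearest genes by Pearson's r. Acta2, Cd68, Cd248, Hba-x, Hbb-bh1, Itgb3, Loxl1, Lyz2, Pdgfra, Pdgfrb, Plat, Postn, Ptprc and Twist2 were named after their values were seen. Promoter windows come from RefSeq (GRCm38.p6), matched by symbol for 8 of 10 members, and Mmp2 and Mmp9 were not matched.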

Additional observations from a re-analysis of the deposited data

Results flagged for a closer look

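Mmp14 was singled out because its differences ran in opposite directions under the same contrast. Bodies against ESC gave -0.67 in DKO cells and 0.52 in f/f cells on the log2 scale, and the interaction did not pass in limma (adjusted p = 0.220). DKO against f/f gave -0.46 at day 20 and 0.16 in MEF. Day 20 against MEF gave -0.086 in DKO cells and 0.53 in f/f cells. The last 2 differences rest on single libraries and were not tested.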

How the results depend on the processing

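Of 1115 recomputed differences of single members, 984 kept their direction and their side of the threshold or size. None of the 3 called differences turned its direction, and 40 recomputed differences of 19 uncalled results did. The number of members called in DKO against f/f bodies was 1 and became 0 with no replicate block, no filter, a mean of at least 0.1 or no trend, and ranged from 0 to 1 when single libraries were left out. In f/f bodies against f/f ESC it was 2 and became 0 with no replicate block or no filter, 1 with no trend and 4 with DESeq2, and ranged from 0 to 2 without single libraries. In DKO bodies against DKO ESC it was 0 and became 1 with pseudocounts of 0.1 and 0.5, 1 with edgeR, 4 with DESeq2 and 2 (Mmp11 and Timp1) with a replicate block within each stage. In ESC it was 0 and became 2 with DESeq2 and 1 (Mmp11, adjusted p = 0.0205) with a block within each stage, with a range of 0 to 1 without single libraries, and the interaction became 1 (Mmp11, adjusted p = 0.0282) with a block within each stage. A stage difference in that last fit refers to replicate 1 by its construction. Otherwise the cause of these changes was not tested. Counts of members at least 2-fold apart between single libraries stayed within 1.5 times under each pseudocount, filter and scaling.

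Directions of uncalled differences turned as follows. For DKO against f/f bodies, Timp3 became 0.0008 with quantile scaling, 0.0713 with edgeR and 0.0487 with DESeq2. Within-stage blocks gave Timp2 0.182 in f/f bodies against ESC and Mmp9 -0.0055 in DKO bodies against ESC. The Mmp3 interaction became 0.3441 with a pseudocount of 0.1, 0.2918 with edgeR and 0.3151 with DESeq2. Leaving out single libraries gave these ranges for DKO against f/f in bodies: Mmp10 -0.4435 to 0.739, Mmp14 -0.6508 to 0.0503, Mmp3 -0.1567 to 0.6603, Timp1 -0.4375 to 0.459, Timp2 -0.9905 to 0.1881 and Timp3 -0.6045 to 0.5283. In ESC they were Mmp10 -0.6006 to 0.2, Mmp3 -0.3768 to 1.0523, Mmp9 -0.1608 to 0.1058, Timp1 -0.5529 to 0.3829 and Timp2 -0.4457 to 0.921. Bodies against ESC gave Mmp11 -0.0598 to 1.2698 and Mmp9 -0.0794 to 0.2125 in DKO cells, and Timp2 -1.2178 to 0.1488 and Timp3 -1.0378 to 0.0795 in f/f cells. Interactions gave Mmp10 -0.3409 to 0.8416, Mmp3 -0.8005 to 0.6286, Timp1 -0.3721 to 0.5637 and Timp2 -1.3221 to 0.0445. Mmp9 had at most 82 reads and Mmp10 at most 144 in any library, and Mmp13 was not tested in ESC and bodies.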
